A study of Mus musculus with 6 samples.

Results

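Genes of primary cilium transport and of the ciliary transition zone were followed in cartilage of the mouse spheno-occipital synchondrosis, a growth cartilage of the cranial base. Members were matched by symbol (Ift and Bbs genes, tectonins, kinesin and dynein motors, transition zone genes and 4 hedgehog-linked cilium genes), and 43 of the 24346 listed gene symbols matched. The symbols were chosen with earlier results of these data known. The series holds 6 RNA-seq libraries from laser-microdissected layers of flat and round chondrocytes, 3 with the title code FP and 3 with RR, each code carrying the numbers 11, 14 and 16. No label spells out the codes or gives the age of the mice when the tissue was taken. Libraries of both codes came from mice of genotype Gli1CreERT2 with a floxed Tomato reporter, given tamoxifen at postnatal day 3. In these mice the Gli1 gene, itself a hedgehog target, drives a tamoxifen-dependent Cre, so that the reporter marks Gli1-expressing cells and their progeny. The labels describe excision of cell layers and mention no selection on the reporter.

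Primary cilia are single, immotile antennae built on a centriole, and most chondrocytes carry one. Cargo moves along the axoneme by intraflagellar transport (IFT): IFT-B trains run outward with kinesin-II, IFT-A trains return with dynein-2, and the BBSome carries membrane proteins out of the cilium. The transition zone at the base is the gate of the organelle. In growth cartilage the cilium is the site where Indian hedgehog is read through Smoothened and the GLI factors, and mutations of many of these genes cause short-rib and other skeletal ciliopathies.

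The promoters of cilium genes are known for the X-box, the binding site of RFX transcription factors. It is shown first because it was more frequent in the members' promoters than in all promoters, although the rule matched symbols and read no sequence. The searched letters were GTTNCC and GGNAAC separated by 1 or 2 bases, a pattern that reads the same on both strands. RefSeq promoters (GRCm38.p6, 250 bases before to 50 after the start) were found for 36 members, in 39 windows. A match with at most 1 mismatch among the 10 fixed letters lay in 13 of the 39 windows (33.3%), against 4.13% of 32851 promoters of all genes. With no mismatch allowed it was 5 of 39 (12.8%) against 0.718%, and with 2 mismatches 48.7% against 23.3%. A spacer of 3 bases with at most 1 mismatch was found in 0 of 39 windows and in 0.868% of all promoters, too few for a comparison, and with 2 mismatches in 20.5% against 11.5%. The shorter GTTGCC, on either strand, was held by 46.2% of the windows and by 12.5% of all promoters. The letters CCAAT, no part of the X-box, were also more frequent in the members' windows (56.4% against 37.4%, either strand). Base composition of the promoters was not compared. The spacers and mismatch limits were compared with the matches in view, and a match is a description of letters, not a shown binding site. The 5 members whose match had no mismatch are printed 5′ to 3′ on the gene's strand, with the match in capitals. These 30-base windows lie at chr3:36613489-36613518 (Bbs7, minus strand), chr16:49699226-49699255 (Ift57, plus), chr11:87853183-87853212 (Mks1, plus), chr5:122264411-122264440 (Tctn1, minus) and chr19:40612350-40612379 (Tctn3, minus).
Bbs7: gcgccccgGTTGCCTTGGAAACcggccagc
Ift57: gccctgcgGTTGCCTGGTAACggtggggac
Mks1: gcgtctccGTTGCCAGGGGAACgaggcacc
Tctn1: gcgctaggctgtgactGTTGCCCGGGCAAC
Tctn3: tcccagcgGTTGCCAGGTAACgggaaccac

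Ift57 held another match, with 1 mismatch, 80 bp before its start (centre of the match). Ift22, of a small GTPase of the IFT-B train, also held 2 matches, each with 1 mismatch, and its 250 upstream bases (chr5:136907900-136908149, plus strand) are given whole to show their spacing.
Ift22: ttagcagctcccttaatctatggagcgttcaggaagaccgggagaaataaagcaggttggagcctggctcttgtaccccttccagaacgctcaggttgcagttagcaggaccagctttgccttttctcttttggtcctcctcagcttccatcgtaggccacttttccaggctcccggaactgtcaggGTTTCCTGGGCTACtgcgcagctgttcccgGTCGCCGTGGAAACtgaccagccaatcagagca

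The other members with a match were Bbs1, Bbs4, Cc2d2a, Ift52, Kif3c, Nphp4 and Tctn2, each with 1 mismatch. Of the 15 matches in all, 8 were centred within 100 bp upstream of the start, besides 3 downstream of it. Promoters of Dync2li1, Ift122, Ift80, Ift81 and Tmem67 were not analysed here. Among other cilium genes, defined below, 19.1% of 94 windows held a match with at most 1 mismatch, and among genes of motile cilia 44.4% of 18.

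**Figure D1:**
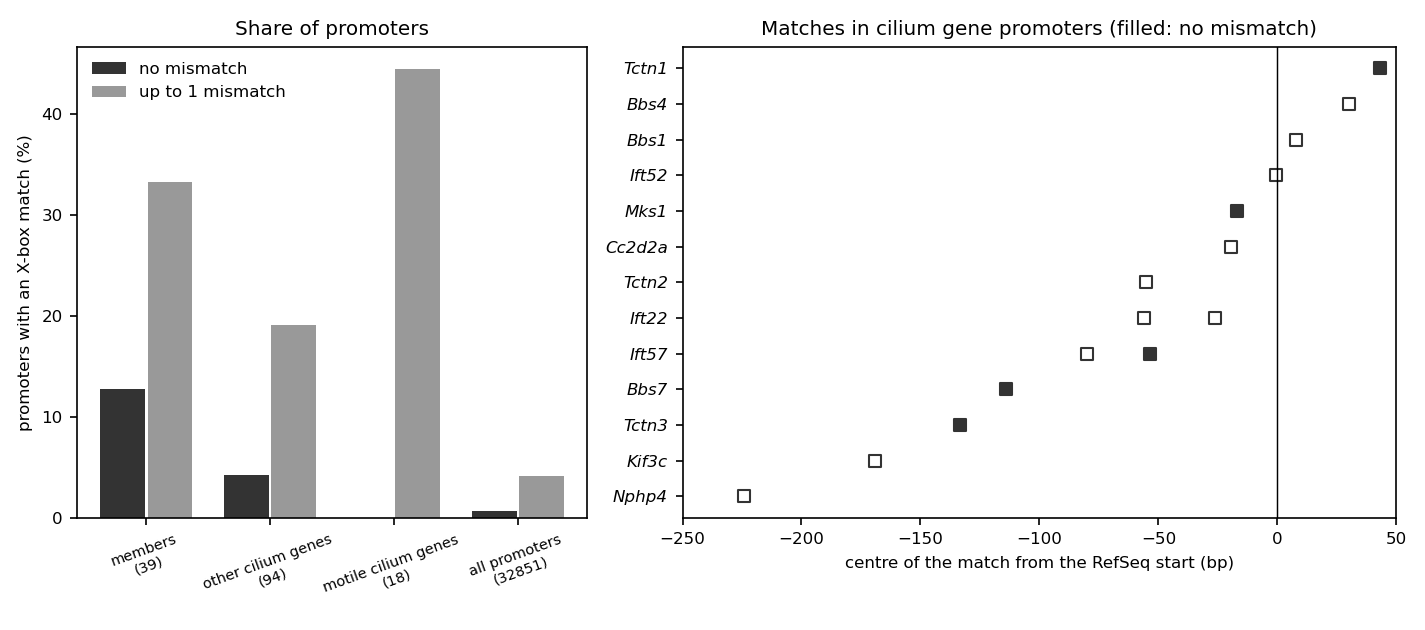
Left, percentage of promoter windows holding an X-box match (spacer of 1 or 2 bases) without a mismatch or with up to 1, with the number of windows in parentheses. Right, distance in bp of each match's centre from the RefSeq start in 13 cilium gene promoters. The 39 member windows stand at 12.8% and 33.3%, all promoters at 0.718% and 4.13%. Match centres run from -224 bp (Nphp4) to 43 bp (Tctn1) from the start.

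Levels are in FPKM, the deposited unit, in which fragment numbers are divided by transcript length and library size. From the spacing of low values, a lone fragment of a transcript of 2000 bp equals 0.128 FPKM in the deepest library and 0.299 in the shallowest, a 2.33-fold range of depth unless the libraries had been rescaled. Over the longest annotated transcript of each gene, the median tested member had 27.5 fragments in FP 14, the lowest of the 6 library medians, and 67.1 in FP 11, the highest. Cartilage identity was clear in all libraries: 10 pan-chondrocyte markers summed to 42830 to 88330 FPKM. Of 11 flat-layer and prehypertrophic markers 10 were called higher in FP (0.554% of all tested genes), and of 8 resting markers 6 were called lower (0.412%). These lists were chosen with earlier results of these data known, so their counts are no independent test of the layers. Blood and macrophage markers summed to 133.5 to 213.6 FPKM in FP and 62.8 to 527 in RR, and skeletal muscle markers to 437 to 542 and 269.8 to 811.7. Osteoblast markers summed highest in library 11 of each group (1283 FPKM in FP 11, 1934 in RR 11), as did nervous tissue markers (46.7 and 37.8). Pan-chondrocyte markers (49090 and 42830) and endothelial markers (7.64 and 7.36) summed lowest there. The osteoblast list held 1 called gene (Sp7, also in the flat-layer list), and the blood, muscle, nervous and endothelial lists held 0. The part of any of these lists in the cilium gene levels was not tested.

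Cilium genes were expressed at middling levels. The median tested member averaged 4.51 FPKM over the 6 libraries, against 4.53 FPKM for all 14789 tested genes. Ift20, whose product also sits at the Golgi and ferries membrane proteins to the cilium, stood far above the others at a mean of 79.0 FPKM. Next came 3 hedgehog-linked genes, Evc2 at 32.1, Kif7 at 20.9 and Evc at 15.2 FPKM. Ift88 (9.97 FPKM), Cc2d2a (9.33) and Ift81 (9.33) followed, and their ranges over libraries overlapped. At the low end, Bbs5 (0.751 FPKM) and Bbs10 (0.959) did not reach the mean of 1 FPKM needed for testing, which left 41 of the 43 members tested.

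**Figure D2:**
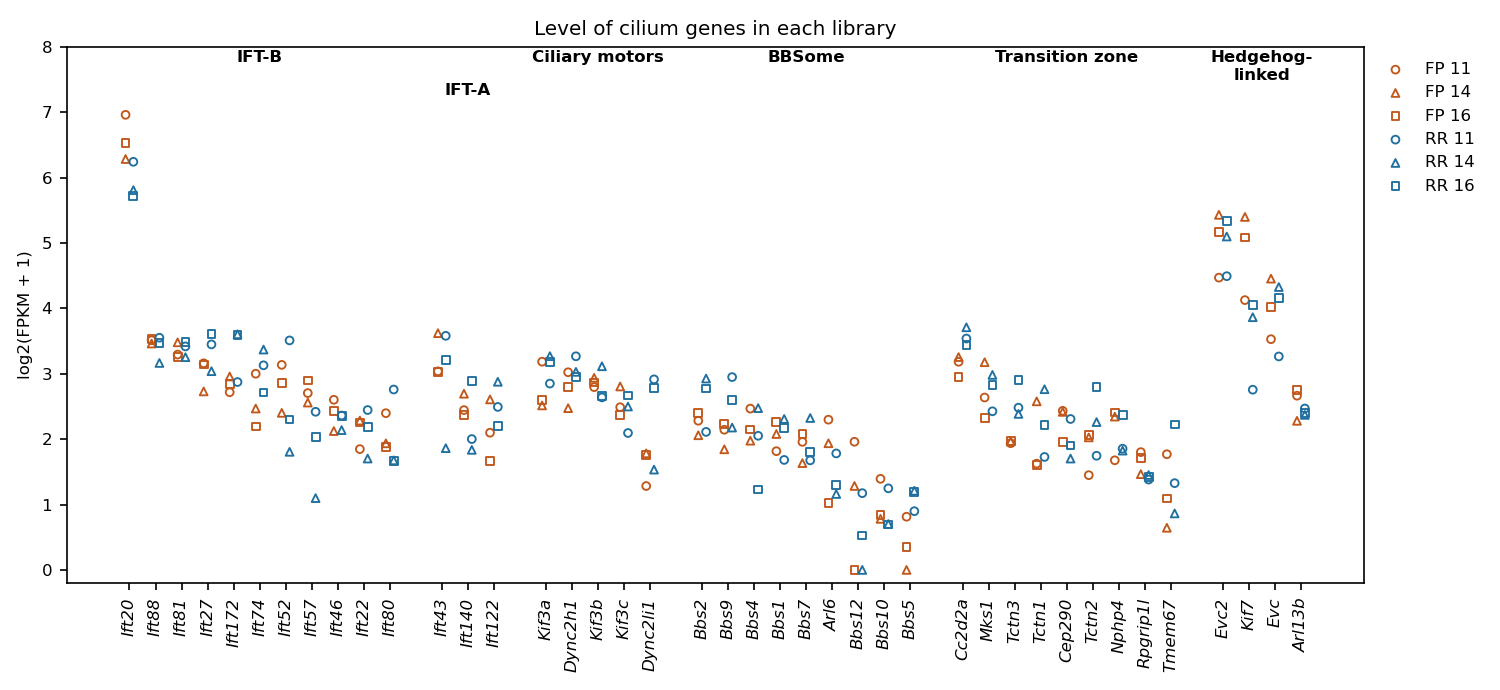
Level of 41 of the cilium genes, as log2(FPKM + 1), in the 3 FP (orange) and 3 RR (blue) libraries, with symbols for library numbers 11 (circle), 14 (triangle) and 16 (square). Genes are grouped by role and ordered by mean level. Ift20 stands highest, Evc2, Kif7 and Evc follow, and most other members lie below 10 FPKM.

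Between FP and RR, no member passed the test. In limma on log2(FPKM + 1), with p-values adjusted by the Benjamini-Hochberg method over all 14789 tested genes, 0 of the 41 members were higher in FP and 0 lower at an adjusted p under 0.05. The background was low: 0.554% of all tested genes were called higher, 0.412% lower and 0.967% in either direction. At an unadjusted p under 0.05, 4 members stood out (Kif7, Tctn3, Ift57 and Ift20), 9.76% against 10.3% of all genes. That count was 1 without FP 11, FP 14 or RR 16, 0 without FP 16, and 1 with quantile normalization. Groups did not overlap for 5 members with FP above RR (8.74% of all genes) and for 2 with FP below (7.28%), together 17.1% of members against 16% of all genes. The shares of the members were thus near the background. Only a limma fit with the library number as a block called a member, Kif7 alone (adjusted p = 0.0347), where 1.83% of all genes were called and 1.08% as higher in FP. In an F test of the number itself 0 of 41 members and 0.169% of all genes were called. The members' log2 changes ran from -0.80 (Dync2li1) to 1.31 (Kif7) with a median of 0.03, against 0.02 for all tested genes, and 32 of 41 lay within 0.5 of 0.

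These intervals also say how much change could have been missed. For 22 of the 41 members (53.7%) the whole 95% interval lay between -1 and 1 on the log2(FPKM + 1) scale. Of all tested genes 32% were as tightly bounded. A 2-fold difference in FPKM is less than 1 on this scale, most of all for low genes. It may therefore lie within such an interval, as for Rpgrip1l (mean 1.92 FPKM, -0.44 to 0.92). The standard errors of the members ran from 0.24 to 0.61. For the other 19 members a change of 1 or -1 on this scale remained within the interval. Nothing in the labels states that the 3 libraries of a group derive from different animals, and the p-values may therefore rest on technical spread. As these are bulk captures, fewer cells with a cilium and less RNA per cell cannot be told apart.

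**Figure D3:**
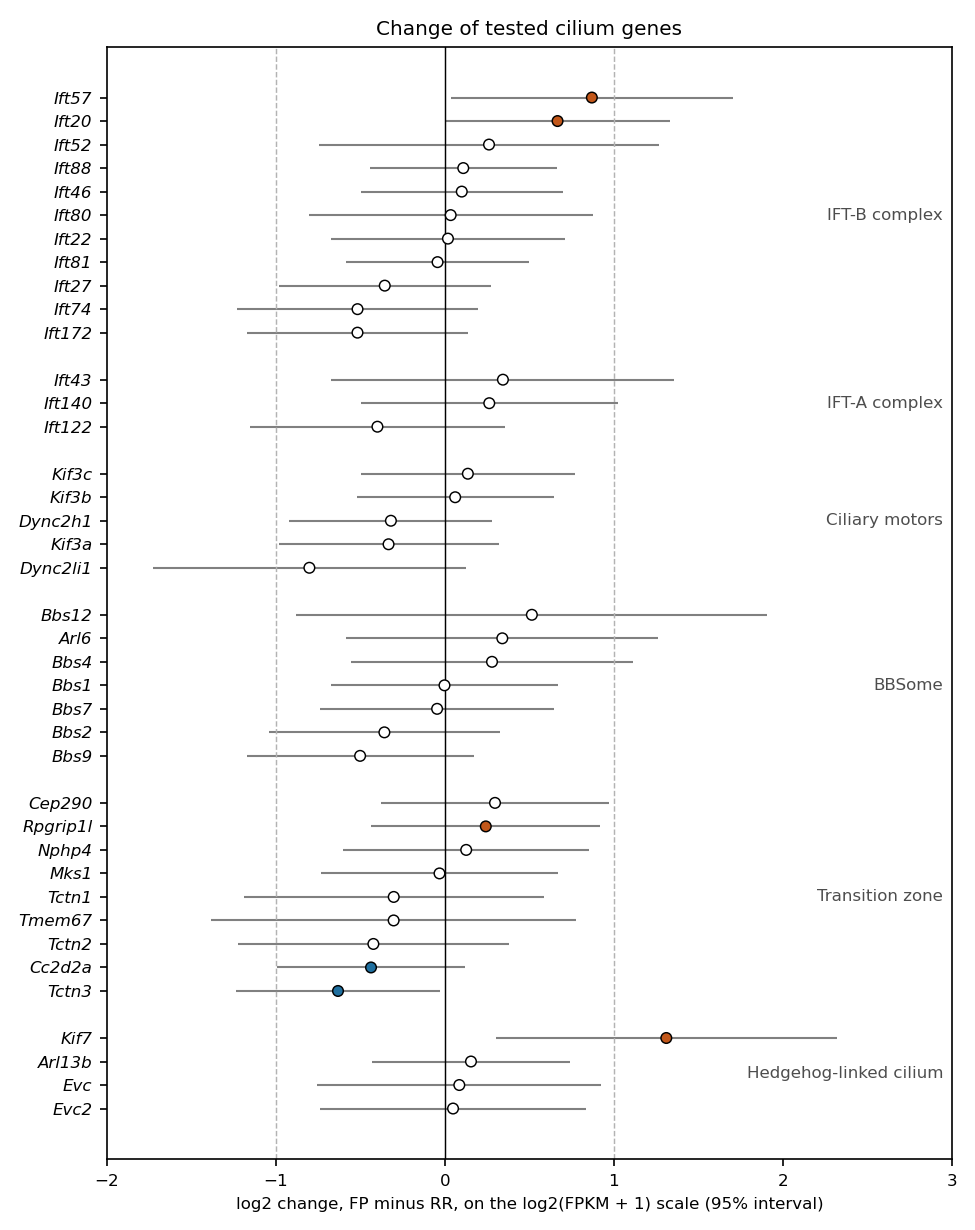
Log2 change between FP and RR (FP minus RR, on the log2(FPKM + 1) scale) with its 95% interval from limma for 39 of the tested cilium genes, grouped by role. Filled points mark genes whose 3 FP values all lie above (orange) or all below (blue) the 3 RR values, and dashed lines mark a change of 1. Kif7 lies farthest to the right at 1.31, and most points lie near 0.

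Among the outward-transport genes, 11 IFT-B subunits were tested, 7 higher and 4 lower in FP by their estimate, with 0 calls. Ift88, a core subunit without which cilia do not form, was among the steadiest, at 10.4, 10.03 and 10.6 FPKM in FP libraries 11, 14 and 16 and at 10.7, 7.98 and 10.1 in RR libraries 11, 14 and 16. All 6 libraries thus lay close together, with RR 14 lowest, and the log2 change was 0.11 (95% interval -0.44 to 0.66). Ift81, which binds tubulin cargo together with Ift74, spanned 8.54 to 10.2 FPKM over all libraries, with a change of -0.04 (-0.59 to 0.50). Its partner Ift74 was at 7.01, 4.54 and 3.57 FPKM in FP against 7.76, 9.35 and 5.56 in RR. FP values of Ift74 tended low, but FP 11 lay above RR 16.

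Ift20 was the most abundant member in every library, at 123.7, 77.1 and 91.5 FPKM in FP against 74.8, 55.1 and 51.9 in RR. Its FP libraries lay above its RR libraries, though FP 14 and RR 11 were only 2.28 FPKM apart, and the 1.61-fold difference of means did not pass (log2 change 0.67 ± 0.29 SE, limma adjusted p = 0.483). With quantile normalization the change was 0.33 (adjusted p = 0.81). The gene lies on chromosome 11 (78536361 to 78541737, plus strand, mm10). Ift57, a peripheral subunit of the train, was at 5.52, 4.90 and 6.45 FPKM in FP against 4.35, 1.14 and 3.10 in RR. All FP libraries again stood above all RR libraries, with RR 14 lowest (0.87 ± 0.37, limma adjusted p = 0.464). Without RR 14 the change was 0.49. Ift57 lies on chromosome 16 (49699233 to 49765126, plus strand).

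Ift172, the largest IFT-B subunit, was at 5.58, 6.77 and 6.18 FPKM in FP against 6.33, 11.2 and 11.1 in RR. RR 11 fell among the FP values, and the change was -0.52 ± 0.29 (limma adjusted p = 0.630). Ift80, mutated in Jeune thoracic dystrophy, was at 4.27, 2.83 and 2.67 FPKM in FP against 5.77, 2.196 and 2.186 in RR, with library 11 highest in both groups and a change of 0.03 (95% interval -0.81 to 0.87). Ift22, Ift27, Ift46 and Ift52 overlapped between the groups, with changes from -0.36 (Ift27) to 0.26 (Ift52). Ift52, a core subunit, ranged from 2.50 FPKM in RR 14 to 10.4 in RR 11.

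The return path showed no called change either. Of the IFT-A subunits, Ift122 was at 3.28, 5.10 and 2.17 FPKM in FP against 4.63, 6.35 and 3.58 in RR, and Ift140 at 4.45, 5.48 and 4.19 against 3.005, 2.57 and 6.41. Both overlapped between groups. Ift43 spread most, at 7.21, 11.3 and 7.17 FPKM in FP against 10.97, 2.64 and 8.29 in RR. RR 14 stood lowest there, resting on 3.46 fragments. Their changes were -0.40, 0.26 and 0.34, and each interval reached past 1 or -1.

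Of the motors, kinesin-II is a pair of Kif3a with Kif3b or Kif3c. Kif3a was at 8.10, 4.72 and 5.05 FPKM in FP against 6.21, 8.65 and 8.05 in RR (-0.33 ± 0.29, limma adjusted p = 0.780), and FP 11 lay among the RR values. Kif3b stayed between 5.23 and 7.67 FPKM in all libraries (0.06, 95% interval -0.52 to 0.65), and Kif3c between 3.27 and 5.995 (0.14, -0.50 to 0.77). The ratio of Kif3a to Kif3b was 1.36, 0.708 and 0.803 in FP and 1.19, 1.13 and 1.51 in RR, so that the ranges overlapped through FP 11. Dync2h1, the heavy chain of dynein-2 and a short-rib dysplasia gene, was at 7.13, 4.56 and 5.94 FPKM in FP against 8.63, 7.17 and 6.74 in RR. FP 11 again reached the RR range (-0.32 ± 0.26, limma adjusted p = 0.773). Dync2li1, the light intermediate chain, had the lowest estimate of all members, at 1.43, 2.44 and 2.38 FPKM in FP against 6.54, 1.90 and 5.87 in RR. RR 14 lay among the FP values, 4.3 to 22.7 fragments stood behind the 6 values, and the change of -0.80 ± 0.41 did not pass (limma adjusted p = 0.578). The change was -0.55 without RR 11, -1.24 without RR 14 and -1.33 without both libraries numbered 14. It passed in none of these limma fits (adjusted p = 0.764, 0.275 and 0.494). Summed over the 5 motor genes, FP libraries held 23.9 to 27.2 FPKM and RR libraries 29.9 to 31.4, a difference given without a test, while the sums of each of the other 5 roles overlapped between the groups.

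BBSome genes were the least expressed role, with a median of 3.20 FPKM over the 7 tested. Bbs9 was at 3.42, 2.59 and 3.69 FPKM in FP against 6.73, 3.52 and 5.05 in RR, and Bbs2 at 3.86, 3.17 and 4.27 against 3.32, 6.61 and 5.85. In each, 1 RR library fell within the FP range (changes -0.50 and -0.36, limma adjusted p = 0.659 and 0.774). Bbs1, Bbs4, Bbs7 and the membrane-recruiting GTPase Arl6 had changes from -0.05 to 0.34. Bbs12, a chaperonin-like factor of BBSome assembly, was listed at 0 in FP 16 and RR 14 and at 2.89, 1.44, 1.26 and 0.440 FPKM in FP 11, FP 14, RR 11 and RR 16. The untested Bbs5 was at 0.758, 0 and 0.275 FPKM in FP against 0.864, 1.32 and 1.29 in RR, resting on 4.33 fragments in FP 11 and at most 5.41, in RR 16. Bbs10, another assembly factor, was at 0.617 to 1.63 FPKM.

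Of 11 transition zone genes, 5 were higher and 6 lower in FP by their estimate. All 3 tectonins had estimates below 0, and Tctn3 was at 2.83, 2.90 and 2.92 FPKM in FP against 4.59, 4.23 and 6.49 in RR. All FP libraries lay below all RR libraries, and the FP values were nearly equal, but the change of -0.63 ± 0.26 did not pass (limma adjusted p = 0.461). Tctn3 lies on chromosome 19 (40596446 to 40612233, minus strand). Tctn1 and Tctn2 had changes of -0.30 and -0.42 with overlapping groups. Cc2d2a, of the same gate complex as the tectonins, was at 8.09, 8.55 and 6.71 FPKM in FP against 10.6, 12.1 and 9.90 in RR. Its groups did not overlap either, with a change of -0.44 ± 0.24 (limma adjusted p = 0.632).

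Rpgrip1l, a scaffold of the gate, was at 2.49, 1.76 and 2.28 FPKM in FP against 1.61, 1.73 and 1.68 in RR, with FP above RR without overlap. FP 14 and RR 14 were almost equal there, and the change was 0.24 (95% interval -0.44 to 0.92). Cep290, Mks1, Nphp4 and Tmem67 overlapped, with changes from -0.30 (Tmem67) to 0.30 (Cep290).

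The hedgehog-linked genes held the member with the largest difference. Kif7, the kinesin that organizes the cilium tip and restrains and activates GLI factors there, was at 16.5, 41.2 and 33.0 FPKM in FP libraries 11, 14 and 16 and at 5.76, 13.6 and 15.7 in RR. Every FP library exceeded every RR library, but FP 11 and RR 16 nearly met, and library 11 was the lowest of its group in both. The means were 30.2 ± 12.6 and 11.7 ± 5.22 FPKM (SD, n = 3 each), a 2.59-fold difference with a log2 change of 1.31 ± 0.44 (95% interval 0.30 to 2.32). It did not pass over all genes in limma (adjusted p = 0.322).

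Kif7 lies on chromosome 7 (79698098 to 79715720, minus strand), and its annotated exons overlap those of Ticrr and 9330171B17Rik on the opposite strand. No source used here says whether reads were counted by strand. Ticrr, a DNA replication gene, was at 1.385, 1.11 and 1.53 FPKM in FP against 0.752, 1.07 and 0.630 in RR. Its FP libraries thus lay above its RR libraries, as for Kif7, at levels far below Kif7 in every library. Its log2 change was 0.37 (limma adjusted p = 0.826). No value was listed for 9330171B17Rik, and the part of opposite-strand reads was not tested. Exons of 8 of the 43 members overlap a gene on the opposite strand, among them Ift57 (Gm15518) and Ift88 (Ift88os).

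Evc and Evc2 encode partner proteins that hold activated Smoothened in a zone near the cilium base, and mutations of either cause Ellis-van Creveld dysplasia. Their start sites lie 1605 bp apart on chromosome 5, on opposite strands. Evc2 was at 21.2, 42.2 and 35.0 FPKM in FP against 21.5, 33.3 and 39.3 in RR, and Evc at 10.6, 20.9 and 15.2 against 8.62, 19.1 and 16.9. Both were lowest in library 11 of each group and overlapped fully between FP and RR. Their changes were 0.05 (95% interval -0.74 to 0.84) and 0.09 (-0.75 to 0.92). The ratio of Evc2 to Evc was 1.75 to 2.50 over all 6 libraries. Kif7 relative to Evc2, a ratio formed after the values were seen and free of scaling between libraries, was 0.778, 0.977 and 0.942 in FP and 0.268, 0.408 and 0.398 in RR. Arl13b, a ciliary membrane GTPase, was at 5.34, 3.86 and 5.75 FPKM in FP against 4.54, 4.18 and 4.26 in RR, with FP 14 below all RR libraries (0.15, 95% interval -0.43 to 0.74).

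**Figure D4:**
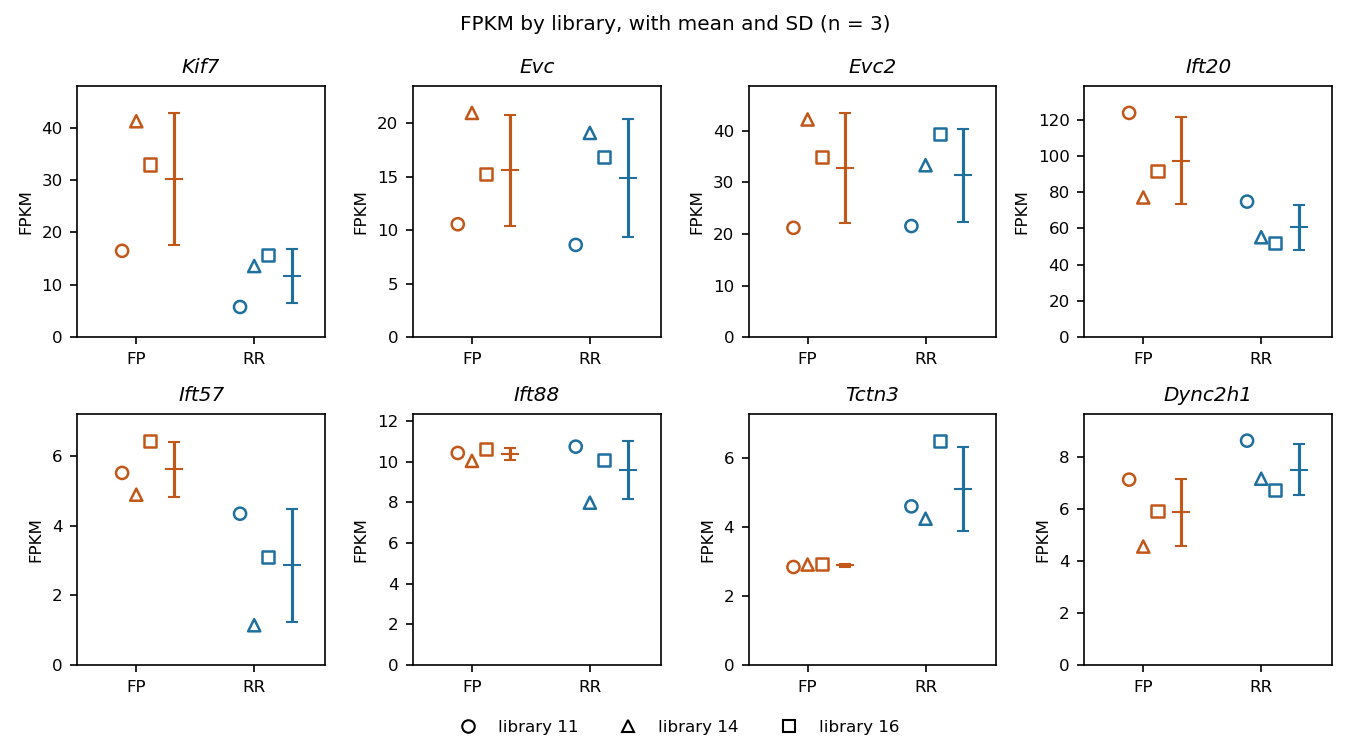
FPKM of 8 cilium genes in each library (circle, triangle and square for libraries 11, 14 and 16), with the mean and SD of the 3 libraries beside them, each axis starting at 0. Kif7, Ift20 and Ift57 are higher in FP and Tctn3 is lower without overlap, while Evc, Evc2, Ift88 and Dync2h1 overlap between the groups.

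Summed over all 43 members, FP libraries held 351.6 to 361.4 FPKM and RR libraries 301.6 to 327.7. Ift20 and Kif7 had the largest excess of mean FPKM in FP (97.4 against 60.6, and 30.2 against 11.7), so leaving them out had to narrow this gap. Without Ift20 and Kif7 the sums were 218.6 to 243.1 and 230.2 to 260.1 FPKM, and the groups overlapped.

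The wider cilium gene set, listed by name as other transport subunits, other transition zone and basal body genes, and ciliary membrane and signalling genes, held 82 tested genes, of which 1 was called higher in FP and 0 lower. Of all tested genes 0.554% were called higher and 0.412% lower, so the share of this set was near the background. The called gene was Ehd3, of a membrane-shaping ATPase that acts on the ciliary vesicle and on endosomes. It was at 17.95, 17.1 and 15.1 FPKM in FP against 3.96, 3.09 and 3.92 in RR. The groups were far apart, with a log2 change of 1.93 ± 0.24 (limma adjusted p = 0.0112). Its call ended without FP 14 or FP 16 (adjusted p = 0.0539 and 0.0592) and without both libraries numbered 14 (0.172). Ehd3 lies on chromosome 17 (73804134 to 73832094, plus strand).

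Among the other transport subunits, 0 of 20 tested were called, and the smallest p-values were those of Mkks and Ttc8, a BBSome assembly factor and a BBSome subunit (changes -0.65 and -0.53, limma adjusted p = 0.598 and 0.629). Among other transition zone and basal body genes, 0 of 36 were called. Fuz, a planar polarity effector needed for cilium formation, was at 1.39, 1.84 and 4.70 FPKM in FP against 4.92, 6.06 and 5.89 in RR, without overlap (-0.97 ± 0.36, limma adjusted p = 0.392). Cep83, of the distal appendages that anchor the centriole, was at 7.87, 7.73 and 8.79 FPKM in FP against 5.92, 4.98 and 5.09 in RR, likewise without overlap (0.53 ± 0.24, adjusted p = 0.50).

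Of the hedgehog genes that work through the cilium, 3 passed the test in the same libraries. Of 11 tested, 1 was called higher in FP (Ihh) and 2 lower (Gli2 and Boc), against 0.554% and 0.412% of all tested genes. The list was chosen with earlier results of these data known. Ihh, the ligand, was at 45.5, 71.9 and 84.4 FPKM in FP against 1.10, 1.43 and 3.93 in RR, while Gli2, the main activator, was at 5.49, 7.32 and 6.95 against 32.02, 30.3 and 43.3. Smo, the transducer in the ciliary membrane, was at 34.3, 47.6 and 38.4 FPKM in FP against 49.1, 61.1 and 70.2 in RR, with FP below RR (-0.57 ± 0.27, limma adjusted p = 0.534). Gli3 at 10.6, 11.7 and 9.98 against 9.30, 8.37 and 9.80 FPKM, and the GLI inhibitor Sufu at 5.82 to 8.84 against 6.42 to 7.47, had changes of 0.21 and 0.13. Ptch1, the receptor, was at 117.0, 96.5 and 119.1 FPKM in FP against 46.3, 25.6 and 61.9 in RR, without overlap. Ptch1 and Gli1, both targets of the pathway, had changes of 1.37 ± 0.35 and 0.40 ± 0.38 (limma adjusted p = 0.166 and 0.816). The call of Gli2 ended when FP 16 was left out (adjusted p = 0.0512), and those of Ihh and Gli2 when both libraries numbered 14 were (0.0588 and 0.0812).

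Of the regulators of the X-box, Rfx1 was at 5.29, 6.58 and 5.49 FPKM in FP against 3.98, 6.05 and 7.14 in RR, Rfx3 at 2.39, 2.60 and 1.57 against 3.32, 2.51 and 2.31, and 0 of 7 tested RFX and FOXJ1 genes were called. The groups of each tested regulator overlapped, and 5 of the 7 intervals lay within -1 to 1, while that of Foxj1 reached from -1.47 to 0.41. Members with an X-box match had a median log2 change of 0.00 (13 genes, from -0.63 to 0.87) and those whose promoter held none 0.10 (21 tested genes, from -0.52 to 1.31). Markers of multiciliated cells with motile cilia summed to 12.7 to 20.3 FPKM over 20 genes in FP and 13.3 to 35.6 in RR. Only 7 of the 20 reached a mean of 1 FPKM, 0 were called, and Foxj1, the master factor of motile cilia, was at 0.194 to 1.99 FPKM.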

How the data were processed

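Each library's file gives FPKM by gene symbol, as deposited and as its header says. The submitters' processing notes name Cuffdiff 2.2.1, TopHat2 2.1.1, SAMtools 0.1.18, Bowtie2 2.2.8 and build mm10. How these were combined, which annotation was used and whether libraries were rescaled were not given in the sources used here. A listed 0 may be a failed estimate.

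Genes whose mean over all 6 libraries reached 1 FPKM were tested as log2(FPKM + 1) in limma 3.58.1 (R 4.3.3; linear model, empirical Bayes with a mean-dependent prior), FP minus RR, two-sided, with Benjamini-Hochberg adjustment over all 14789 genes. The pseudocount lowers the changes of low genes. Folds are ratios of mean FPKM, and ± after a log2 change is its SE. The test was checked on simulated data.

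Members and gene lists were chosen with earlier results of these data known. Values in every library are given for members past the threshold, the 3 of smallest p per role and 7 ciliopathy genes (Ift80, Ift88, Kif3a, Dync2h1, Kif7, Evc and Evc2), and for others where they showed spread or low counts. Of other cilium lists, called genes or the 2 of smallest p are named. Values of 2 members, counted in all totals, are not reported here. Fragments were estimated from the step of low FPKM values of single-transcript genes (GENCODE M21 basic, mm10), of which 68.9% to 72.5% were whole within 0.1 fragments, against 20% by chance. Alternatives changed the pseudocount, filter, scaling, prior, library weights, block and libraries.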

Additional observations from a re-analysis of the deposited data

How the results depend on the processing

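No member was called in any fit except that with the library number as a replicate block, where 1 member, Kif7, was called higher in FP (log2 change 1.31, limma adjusted p = 0.0347). Its adjusted p in the other fits ran from 0.188 (library weights) to 0.825 (without both libraries numbered 14), and its change from 0.91 (without RR 11) to 1.68 (without FP 11). The number is not stated to pair libraries. Deviations from the group mean correlated between same-numbered libraries at 0.319, 0.185 and 0.089 for 11, 14 and 16, each library correlating best with its own number, a hint from the data only. The block also called Ptch1 and Gas1, a hedgehog co-receptor gene (adjusted p = 0.0452 and 0.0334), which made 5 called hedgehog genes of 11 in place of 3, and changed the count of all genes from 143 to 271. In an F test of the number itself, chosen after seeing the data, 0 of 41 members passed (0.169% of all genes), and 6 had an unadjusted p under 0.05 (14.6% against 17.6%), among them Kif7, Evc and Evc2.

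The count of all genes was 83 with no intensity trend, 42 to 85 without 1 library and 8 without both numbered 14. The other cilium genes called numbered 0 to 1 without 1 library (0 without FP 14 or FP 16) and 0 without both numbered 14. Small changes turned sign: with quantile normalization Evc (-0.077), Evc2 (-0.17) and Ift88 (-0.006), with library weights Ift80 (-0.091), and without both numbered 14 Ift140 (-0.035), Ift43 (-0.36), Ift80 (-0.079) and Evc2 (-0.093). Without 1 library, ranges were -0.24 to 0.32 for Evc, -0.19 to 0.32 for Evc2, -0.15 to 0.40 for Ift80, -0.17 to 0.69 for Ift43, -0.006 to 0.19 for Ift88 and -0.003 to 0.72 for Gli1. The cause was not tested. Members with an unadjusted p under 0.05 numbered 2 with no filter or no intensity trend. Depth limits the members with few fragments most. Among them were Bbs5, Bbs10, Bbs12, Arl6, Dync2li1 and Ift43, none above 27.4 fragments in any library.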

Other observations

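Ift20 and its neighbour differed in direction. Tnfaip1, whose start lies 29 bp from that of Ift20 on the opposite strand, was at 4.88, 3.93 and 4.604 FPKM in FP against 6.21, 6.41 and 7.01 in RR, without overlap (log2 change -0.47 ± 0.24, limma adjusted p = 0.595), while Ift20 was higher in each FP library than in any RR library. Neither passed the test. Tnfaip1 was looked up because of its position, as were the neighbours of Tctn3, Dync2h1 and Ift80. Entpd1, beside Tctn3, had a change of -0.37, the same direction as Tctn3 (-0.63). Dcun1d5, beside Dync2h1, had 0.43 against -0.32, and Smc4, beside Ift80, 0.63 against 0.03. None of these passed the test. In all, 11 members have a protein-coding gene starting within 2000 bp in the opposite direction.

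Proliferation genes, which bear on cilia because dividing cells resorb them, were all higher in FP by their estimate (9 of 9 tested, 0 called, median log2 change 0.70). Of all tested genes 51.6% were higher by estimate. Groups did not overlap for 2 of the 9 (22.2%, against 16% of all genes). Their 10 symbols summed to 81.1 to 140.3 FPKM in FP against 54.3 to 81.4 in RR. Top2a, a mitotic topoisomerase gene with the largest change of them (1.16), had 31.6, 19.6 and 27.9 FPKM in FP against 18.7, 6.49 and 10.7 in RR (limma adjusted p = 0.303). The smallest was that of Pcna (0.27), with overlapping groups. Their part in the cilium gene levels was not tested.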
